A study of Mus musculus with 18 samples.

Results

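The genes that drive cells from the G1 phase into DNA synthesis were examined as a group of 10: the D-type cyclins *Ccnd1*, *Ccnd2* and *Ccnd3*, their kinases *Cdk4* and *Cdk6*, the E-type cyclins *Ccne1* and *Ccne2* with their kinase *Cdk2*, and the transcription factors *E2f1* and *E2f2*. They were chosen by gene symbol from the 18838 genes listed in the series, and all 10 were present in each of the 3 expression tables (17759 genes for crypts, 17423 for day 1 and 17612 for day 3). The study examined MTGR1, a transcriptional co-repressor of the myeloid translocation gene family that is encoded by *Cbfa2t2*, in the mouse duodenum. Bulk mRNA was sequenced from fresh crypts (day 0) and from the 3D cultures grown out of them, called enteroids, at day 1 and day 3 after plating. Each time point had 3 libraries from WT (Mtgr1+/+) mice and 3 from Mtgr1-/- mice.

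The allele is a global null, so every cell type of the animal carries it. The mice were littermates of matched age and of both sexes, between 8 and 12 weeks old. No drug was given, and the crypts and enteroids of one mouse carry the same mouse number in the labels. Values are normalised read counts, which are reads per gene divided by one scaling factor per library, and 22035316 to 28621990 reads were recovered from the 16 libraries in which those factors were resolved. The targeted gene did not check the labels: *Cbfa2t2* (chr2:154436481-154539356, GRCm38) had 614, 523 and 595 normalised counts in WT crypts and 697, 466 and 534 in crypts labelled Mtgr1-/-, with overlapping values at day 3 also. At day 1 it had 788, 710.2 and 757 in WT against 1160.3, 1008 and 789 in libraries labelled Mtgr1-/- (log2 fold change 0.37, adjusted p = 0.0557, limma). A count per gene can hold reads from outside the deleted part, and values per exon were not analysed here. The libraries are therefore named by their label throughout, also where only Mtgr1-/- is written.

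D-type cyclins bind CDK4 and CDK6 in response to growth signals, and the complexes phosphorylate the retinoblastoma protein and its relatives, the pocket proteins. Phosphorylated pocket proteins release E2F factors, which switch on the E-type cyclins and the genes of DNA replication. Cyclin E with CDK2 then completes the phosphorylation and starts S phase. In the intestine these genes are most active in the stem and transit-amplifying cells of the crypt, where *Ccnd1* and *Ccnd2* are known to respond to Wnt signalling. In bulk libraries, fewer cells of a type and less RNA per cell cannot be told apart.

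Epithelial identity was clear in every library, and 1 library stood apart. The summed normalised count of 8 epithelial markers (*Epcam*, *Cdh1*, *Vil1*, *Krt8*, *Krt18*, *Krt19*, *Cdx2* and *Pdx1*) lay between 143257 and 375769. The summed count of 8 immune markers was 12426 in WT crypt 3, against 1135 and 1244 in the other WT crypt libraries and 388 to 1379 in the crypts labelled Mtgr1-/-. It was 54.2 to 427 in WT enteroids and 31.8 to 554 in enteroids labelled Mtgr1-/-, where mouse 3 of either genotype was highest at day 1 and mouse 3 of the Mtgr1-/- label at day 3. In single libraries up to 4 of the 8 immune markers were at 0, and none was at 0 in WT crypt 3. The 8 mesenchymal and endothelial markers summed to 24.5 to 288 in crypts, with the highest value again in WT crypt 3, and to at most 32.0 in enteroids. At day 1 the epithelial sum was 199894 to 256316 in WT and 281881 to 375769 in libraries labelled Mtgr1-/-, and 5 of the 8 markers passed the test for higher expression (30.0% of all genes). At day 3 it was 143257 to 157906 and 270224 to 279975, with 6 markers higher (29.9% of all genes). By limma none of the 8 immune markers tested in crypts was called, with 1 lower at an unadjusted p below 0.05. There edgeR called 0 of 7 and DESeq2 called 2 of 8 lower (7 at an unadjusted p below 0.05 by either tool). The edgeR and DESeq2 fits of crypts lacked WT crypt 2, so their WT libraries were WT crypt 1 and WT crypt 3. In enteroids limma called none of the 6 immune markers tested at day 1 or of the 3 tested at day 3, also unadjusted, and edgeR called none and DESeq2 1, which was higher at day 3. No mesenchymal or endothelial marker was called by the 3 tools, and at an unadjusted p below 0.05 DESeq2 alone gave any, 3 in crypts. The part of these cell populations in the results was not tested.

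**Figure D1:**
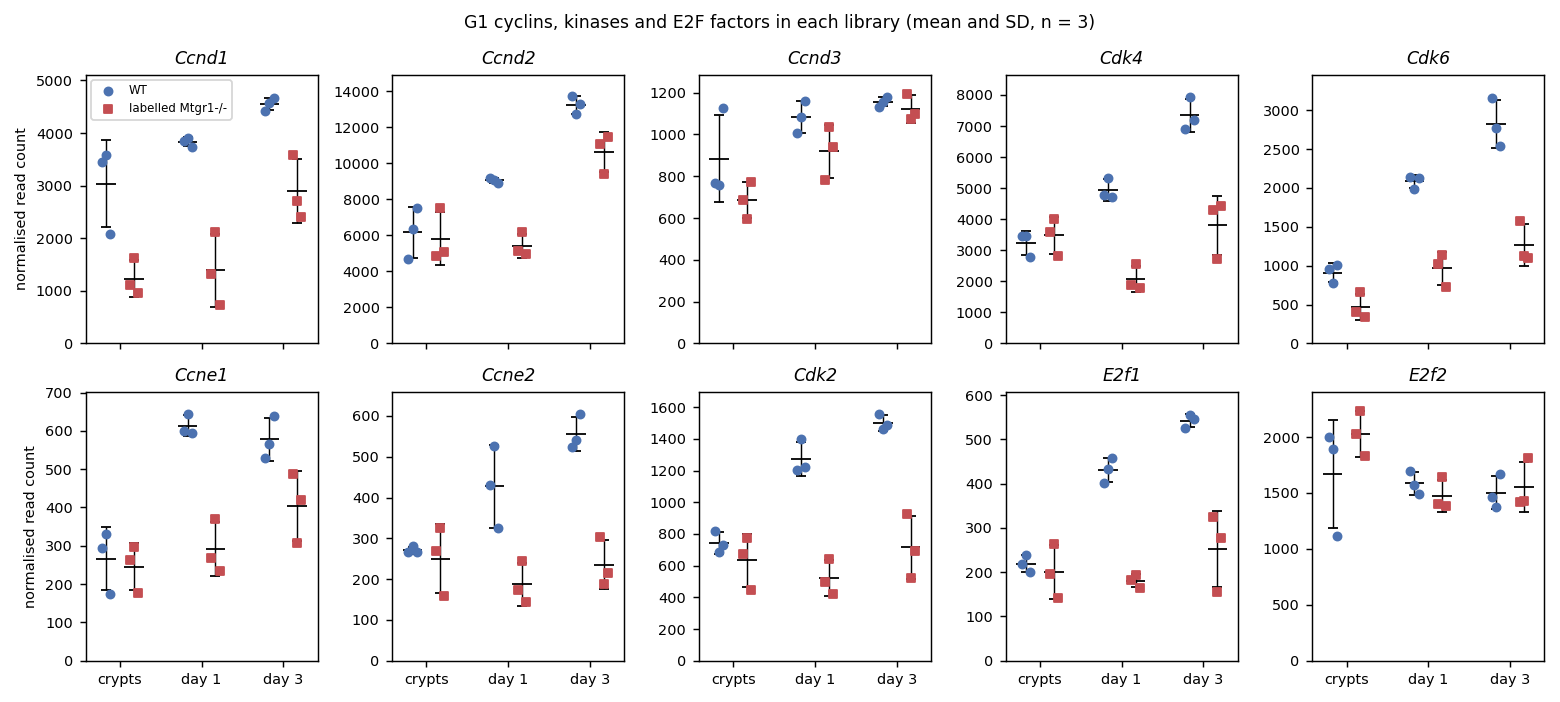
Normalised read counts (vertical axes, each starting at 0) of the 10 genes in all 18 libraries, by time point. Circles are WT libraries, squares are libraries labelled Mtgr1-/-, and bars give the mean and SD of 3. At day 1, 8 of the 10 genes have all 3 squares below all 3 circles, while *Ccnd3* and *E2f2* overlap.

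Most of the 10 genes were lower in the enteroids labelled Mtgr1-/-. In crypts, only *Ccnd1* of the 10 genes passed the test (limma on log2 values, adjusted p below 0.05) and it was lower in the libraries labelled Mtgr1-/-, where 3.15% of all genes tested were lower and 1.58% higher. At day 1, 8 of the 10 were lower and none was higher, against 28.9% and 30.0% of all genes. At day 3 the count was again 8 lower and none higher, against 29.1% and 29.9%. None of the 10 was higher at an unadjusted p below 0.05 either, and edgeR and DESeq2 called none higher. The 2 genes that were not called in either enteroid comparison were *Ccnd3* and *E2f2*. The median log2 fold change of the 10 was -0.17 in crypts, with -1.16 (day 1) and -0.83 (day 3), beside medians of 0.01, -0.01 and 0.00 over all genes. All 3 libraries labelled Mtgr1-/- lay below all 3 WT libraries for 2 of the 10 genes in crypts (13.5% of all genes), for 8 at day 1 (33.9%) and for 8 at day 3 (34.2%).

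**Figure D2:**
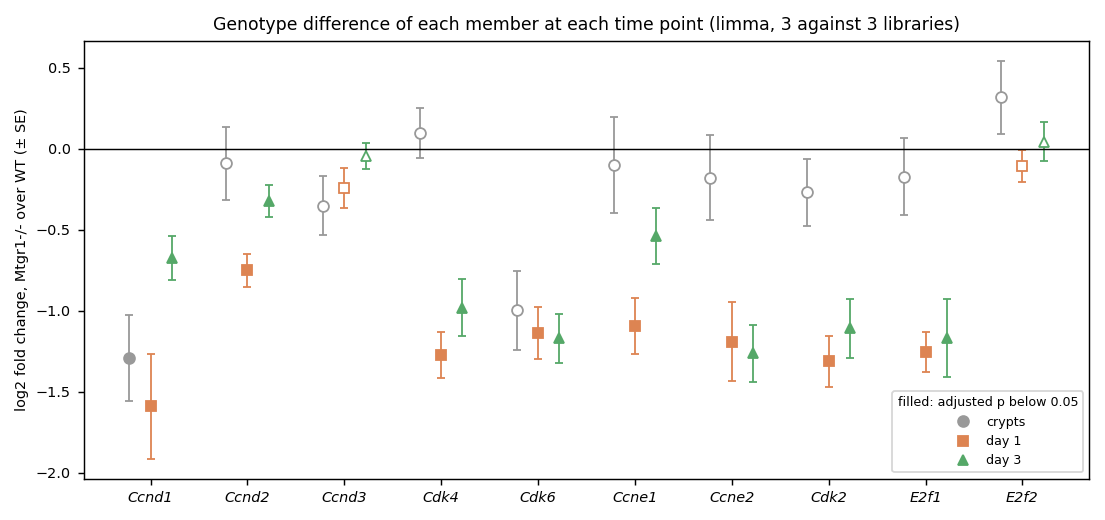
Log2 fold change (vertical axis, labelled Mtgr1-/- over WT) of each gene for crypts and both enteroid ages, with its standard error. Filled symbols have an adjusted p below 0.05 (limma, 3 against 3 libraries). *Ccnd1* is the one filled symbol in crypts at -1.29, and *Ccnd3* and *E2f2* have open symbols at all time points.

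*Ccnd1* (chr7:144929931-144939925, GRCm38, minus strand) encodes cyclin D1. Its normalised counts in crypts were 3449, 3575 and 2080.1 in WT and 1118, 1622 and 959 in libraries labelled Mtgr1-/-. The lowest WT value belonged to WT crypt 3, the library with high immune markers, and it was still above every Mtgr1-/- value. The difference was -1.29 ± 0.27 (log2, SE), so the level was lower by 59.2% in the Mtgr1-/- libraries, with adjusted p = 0.0435 (limma). Without WT crypt 3 it was -1.54 with adjusted p = 0.0193 (limma). The call was lost without WT replicate 1 (adjusted p = 0.162), WT replicate 2 (0.139), null replicate 1 (0.136) or null replicate 3 (0.134). It was also lost with scaling to the library total (0.0556) and with no variance trend (0.0893). The edgeR and DESeq2 fits lacked WT crypt 2, and the call was lost with edgeR (0.129) and kept with DESeq2 (0.00619).

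In enteroids *Ccnd1* was lower in the libraries labelled Mtgr1-/- than in WT at both time points. At day 1 the counts were 3851, 3909 and 3740.4 in WT and 1328, 2115 and 735 in libraries labelled Mtgr1-/-, a log2 difference of -1.59 ± 0.32 (adjusted p = 0.00417, limma). The WT libraries stayed within a narrow band, whereas the Mtgr1-/- libraries spread from 735 to 2115. By day 3 WT libraries held 4427, 4568 and 4661 counts against 3576, 2714 and 2403 (-0.67 ± 0.14, adjusted p = 0.00366). Mouse 3 had the lowest value among the Mtgr1-/- libraries at all 3 time points.

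*Ccnd2* (chr6:127125162-127152193, minus strand) encodes cyclin D2. In crypts its counts overlapped fully, with 4677, 6343 and 7489 in WT and 4868, 7495 and 5077 in libraries labelled Mtgr1-/- (-0.09 ± 0.23, adjusted p = 0.884). Day 1 values were 9183, 9082 and 8896 for WT, and 5104, 6171 and 4963 for Mtgr1-/-. The level was lower by 40.5% in the Mtgr1-/- libraries, a log2 difference of -0.75 ± 0.10 (adjusted p = 0.000776, limma). At day 3 the counts were 13703, 12719 and 13302 against 11047, 9376 and 11424, and the difference was -0.32 ± 0.10 (adjusted p = 0.0213). The groups did not overlap at either enteroid time point, but the day 3 call was lost without WT replicate 1 (adjusted p = 0.0741) or WT replicate 3 (0.0677). The day 3 difference was -0.60 with quantile normalisation and -0.52 with scaling to the library total.

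*Ccnd3* (chr17:47505051-47599691, plus strand), which encodes cyclin D3, was not called at any time point. Its counts were 760.3 to 1125 in WT crypts and 597 to 770.4 in crypts labelled Mtgr1-/- (-0.35 ± 0.18, adjusted p = 0.367), and the highest value was that of WT crypt 3. Without that library the difference was -0.16. Day 1 counts were 1007, 1083 and 1158 for WT, against 782, 1035 and 941 in the Mtgr1-/- libraries (-0.24 ± 0.12, adjusted p = 0.121). At day 3 the ranges were 1134 to 1178 and 1073 to 1196 (-0.05 ± 0.08, adjusted p = 0.639). At day 1 *Ccnd3* was called lower when values were scaled to the library total, as CPM (-0.56, adjusted p = 0.0169), with array weights (0.00644) or without null replicate 2 (0.0374).

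Neither kinase gene of the D-type cyclins passed the test in crypts. *Cdk6* (chr5:3341485-3531008, plus strand) had 954, 773 and 1003 counts in WT crypts and 406, 660.1 and 346 in crypts labelled Mtgr1-/-. The groups did not overlap, but the difference of -0.997 ± 0.24 missed the threshold (adjusted p = 0.0743, limma). It passed with DESeq2 on recovered reads (0.0163), with array weights (0.00371) and without null replicate 2 (0.0116), whereas edgeR gave 0.142. WT crypt 2 was missing from the edgeR and DESeq2 fits. *Cdk4* had 3471, 3452 and 2775 in WT crypts against 3597, 4019 and 2828, a difference of 0.10 ± 0.16 (adjusted p = 0.793).

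Both kinase genes were lower in enteroids labelled Mtgr1-/- than in WT enteroids. *Cdk4* counts at day 1 were 4778, 5331 and 4705 in WT and 1872, 2556 and 1785 in libraries labelled Mtgr1-/- (-1.27 ± 0.14, adjusted p = 0.000374). The day 3 values were 6909, 7932 and 7194 against 4286, 2717 and 4415 (-0.98 ± 0.18, adjusted p = 0.00215). Null replicate 2 was thus the highest of its group at day 1 and the lowest at day 3. Over the 10 genes, that mouse gave the highest Mtgr1-/- value for 9 in crypts and for 10 at day 1, but the lowest for 7 at day 3. For *Cdk6* the day 1 counts were 2138, 1984 and 2132 for WT, against 1025, 1143 and 726 (-1.14 ± 0.16, adjusted p = 0.00091). The day 3 counts were 3152, 2774 and 2536 against 1579, 1126 and 1096 (-1.17 ± 0.15, adjusted p = 0.000436). *Cdk6* thus fell by 54.5% at day 1 and fell by 55.5% at day 3.

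The promoter windows of *Cdk4* and *Cdk2*, which were lower in enteroids labelled Mtgr1-/-, and of *E2f2*, which was not called, are shown for comparison. RefSeq windows (GRCm38.p6, 250 bases before to 50 after a start) were given for 7 of the 10 genes in 9 windows. The 250 upstream bases are printed 5′ to 3′ on the gene's strand, with matches to the E-box, the E2F words or the CCAAT box in capitals.
Cdk4, chr10:127063285-127063534, plus strand: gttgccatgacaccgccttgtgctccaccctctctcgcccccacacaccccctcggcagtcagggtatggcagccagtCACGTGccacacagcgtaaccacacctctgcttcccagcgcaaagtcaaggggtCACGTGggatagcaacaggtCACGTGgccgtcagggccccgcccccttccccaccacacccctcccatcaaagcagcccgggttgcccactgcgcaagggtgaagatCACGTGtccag
Cdk2, chr10:128705052-128705301, minus strand: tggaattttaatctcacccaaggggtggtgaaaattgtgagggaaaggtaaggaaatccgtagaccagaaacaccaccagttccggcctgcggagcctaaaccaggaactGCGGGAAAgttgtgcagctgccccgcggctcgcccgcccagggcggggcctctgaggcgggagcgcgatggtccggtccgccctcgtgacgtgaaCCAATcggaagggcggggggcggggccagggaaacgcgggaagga
E2f2, chr4:136172024-136172273, plus strand: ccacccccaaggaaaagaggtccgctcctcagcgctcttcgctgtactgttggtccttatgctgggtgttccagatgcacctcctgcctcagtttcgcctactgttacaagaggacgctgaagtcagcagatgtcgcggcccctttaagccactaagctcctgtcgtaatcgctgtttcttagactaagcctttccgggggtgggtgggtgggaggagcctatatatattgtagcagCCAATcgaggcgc
Both strands were searched for the E-box CACGTG, the E2F words TTTGGCGC, TTTCGCGC, TTTCCCGC and TTTGCCGC, the TCF words CTTTGAA and CTTTGAT, the CCAAT box CCAAT and the cyclic AMP element TGACGT. The *Cdk4* window held 4 E-boxes, starting 172, 118, 98 and 11 bases before the start. That of *Cdk6* held 1 E-box, starting 220 bases before the start. The windows of *Ccne1* and *E2f1*, also lower in enteroids labelled Mtgr1-/-, held no E-box and no E2F word. At least 1 E-box was found in 7.15% of all 32817 windows, and 8 windows held 4 or more. *Cdk2* held 1 E2F word (percent of all windows: 2.26%), which was read on the opposite strand, 1 CCAAT box (37.4%) and 1 cyclic AMP element (7.51%). The *E2f2* window printed above held a CCAAT box upstream and an E2F word after the start. The other *E2f2* window, at a downstream start (chr4:136180532-136180831), held 3 CCAAT boxes and no E2F word. A TCF word, present in 8.65% of all windows, was found in that of *Cdk4* alone among the 9. A match is a description of these letters and not evidence of binding.

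*Cdk2* (chr10:128697939-128705031, minus strand) encodes the kinase partner of cyclins E and A. In crypts its counts were 821, 683 and 729 in WT and 674, 776 and 448 in libraries labelled Mtgr1-/- (-0.27 ± 0.21, adjusted p = 0.555). Day 1 enteroids had 1203, 1398 and 1223 against 494, 644 and 420.2, a difference of -1.31 ± 0.16 (adjusted p = 0.000519, limma). The day 3 comparison was 1558, 1459.8 and 1487 against 925, 525 and 694 (-1.11 ± 0.18, adjusted p = 0.00136). The groups stood well apart at both enteroid time points, with a highest Mtgr1-/- value of 644 below a lowest WT value of 1203 at day 1.

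The E-type cyclins bind CDK2 at the start of S phase. *Ccne1* (chr7:38097984-38107534, minus strand) had 294, 331 and 174 counts in WT crypts and 262, 296 and 177 in crypts labelled Mtgr1-/- (-0.10 ± 0.30, adjusted p = 0.901). Day 1 counts were 599.9, 645 and 595 for WT, against 269, 371 and 235 in the Mtgr1-/- libraries (-1.10 ± 0.17, adjusted p = 0.00135). Day 3 libraries gave 528, 566 and 639 against 487, 306 and 419 (-0.54 ± 0.17, adjusted p = 0.0271). The day 3 groups came close, and the call was lost without WT replicate 2 (0.0697) or WT replicate 3 (0.0981). Without null replicate 2 the difference was -0.35 (0.0355).

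*Ccne2* (chr4:11191351-11204779, plus strand) was 266, 281 and 266 in WT crypts and 268, 324 and 158 in crypts labelled Mtgr1-/- (-0.18 ± 0.26, adjusted p = 0.778). Its counts at day 1 were 431, 527 and 324 for WT, against 173, 246 and 144 (-1.19 ± 0.24, adjusted p = 0.00414, limma). The values after 3 days were 524, 541 and 604 against 304, 188 and 216 (-1.26 ± 0.18, adjusted p = 0.000676). *Ccne2* thus fell by 56.2% at day 1 and fell by 58.3% at day 3, and the groups did not overlap at either time point.

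*E2f1* and *E2f2* encode activator E2F factors that bind DNA with a DP partner. *E2f1* (chr2:154559407-154569892, minus strand) lies on the same chromosome as *Cbfa2t2*, 20050 bp beyond its end, with 3 annotated genes overlapping the gap. Its counts were 218, 239.6 and 200.3 in WT crypts and 197, 263 and 141 in crypts labelled Mtgr1-/- (-0.17 ± 0.24, adjusted p = 0.761). In day 1 enteroids WT had 402, 433 and 458 against 183, 193 and 164, and *E2f1* had the smallest adjusted p of the 10 genes (-1.25 ± 0.13, adjusted p = 0.000264, limma). At day 3 the counts were 526, 555 and 547 against 324, 156 and 276 (-1.17 ± 0.24, adjusted p = 0.0041). The lowest value was again that of null replicate 2.

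*E2f2* (chr4:136172394-136196057, plus strand) was 2004, 1897 and 1117 in WT crypts and 2024, 2233 and 1826 in crypts labelled Mtgr1-/- (0.32 ± 0.23, adjusted p = 0.509). The low value belonged to WT crypt 3, without which the difference was 0.05. At day 1 the counts were 1495 to 1694 for WT, against 1385 to 1642 in the Mtgr1-/- libraries (-0.10 ± 0.10, adjusted p = 0.389). The day 3 ranges were 1374 to 1667 and 1422 to 1811 (0.04 ± 0.12, adjusted p = 0.773). On the CPM scale *E2f2* was called lower at day 1 (-0.43, adjusted p = 0.0226), a scale on which the median of all genes moved by -0.32 at day 1 and by -0.20 at day 3. CPM scaling moves all genes of a library alike. Relative to that shift the day 1 values of *E2f2* and *Ccnd3* therefore had to stay near -0.10 and -0.24, which is no separate result. On that scale 5614 genes were lower and 2200 higher at day 1, in place of 3637 and 3776, and 5089 and 2748 at day 3, in place of 3719 and 3826.

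The genotype difference in enteroids was then compared with that in crypts, in a single limma model over the 18 libraries in which mouse was a random effect. The correlation estimated within a mouse was -0.00481, so the model treated the 18 libraries nearly as independent. From crypts to day 1 the difference became more negative for 6 of the 10 genes, against 21.1% of 12145 genes. *Cdk4* moved by -1.37 ± 0.26 (adjusted p = 0.00173), *E2f1* by -1.08 ± 0.33 (0.0159) and *Cdk2* by -1.05 ± 0.29 (0.0115). *Ccne2* moved by -1.01 ± 0.36 (0.036), *Ccne1* by -0.99 ± 0.35 (0.0319) and *Ccnd2* by -0.66 ± 0.24 (0.0347). The 2 genes with the most negative differences in crypts did not pass, with -0.30 ± 0.42 for *Ccnd1* (adjusted p = 0.6) and -0.14 ± 0.30 for *Cdk6* (0.736). Their crypt differences of -1.29 and -0.997 thus stood beside day 1 differences of -1.59 and -1.14. *E2f2* was not called either (-0.42 ± 0.25, adjusted p = 0.179), but passed with CPM (-0.77, adjusted p = 0.0339).

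From crypts to day 3 the difference became more negative for 4 genes, against 15.1% of all genes: *Cdk4* (-1.08 ± 0.26, adjusted p = 0.00787), *Ccne2* (-1.08 ± 0.36, 0.0348), *E2f1* (-0.996 ± 0.33, 0.0311) and *Cdk2* (-0.84 ± 0.29, 0.0407). For *Ccnd1* the change was 0.62 ± 0.42 (adjusted p = 0.274). In both sets calls were lost when single mice were left out, and *Cdk4* alone kept its call whichever mouse was left out. With 1 mouse left out, the change from crypts to day 1 ran from -1.25 to -0.92 for *E2f1* and from -1.16 to -0.92 for *Cdk2*. It ran from -1.18 to -0.87 for *Ccne2*, from -1.14 to -0.74 for *Ccne1* and from -0.83 to -0.46 for *Ccnd2*. At day 1 the number of calls was 2 without WT mouse 1, 1 without WT mouse 2, 4 without WT mouse 3, and 3, 6 and 5 without Mtgr1-/- mouse 1, 2 and 3. At day 3 it was 1 without any one of the WT mice or Mtgr1-/- mouse 2, and 4 without Mtgr1-/- mouse 1 or 3. Without Mtgr1-/- mouse 2 the day 3 changes shrank to -0.47 for *E2f1* (adjusted p = 0.0953), -0.47 for *Cdk2* (0.125), -0.72 for *Ccne2* (0.107) and -0.74 for *Cdk4* (0.00647, limma). From day 1 to day 3, limma called none of the 10, against 0.00823% of all genes more negative and 0.0247% more positive. Before adjustment 1 gene passed, *Ccnd1* (0.92 ± 0.42, adjusted p = 0.678, limma), and no count-based tool was run for these differences. Without null replicate 2, whose day 3 library was the lowest of its group for 7 of the 10 genes, the change from day 1 to day 3 was 1.32 for *Ccnd1* (adjusted p = 0.0324, limma) and 0.68 for *Cdk4* (0.0254). The shares over all genes given here belong to the fit with all mice. They do not apply to the fits with 1 mouse left out, for which no such share was counted.

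Related genes within a family did not always move by the same amount, so their log2 ratios were compared within libraries. Each of the 15 ratios had 3 against 3 libraries, for which an exact two-sided permutation test cannot give less than p = 0.1, or 0.188 after adjustment over the 15. The log2 ratio of *E2f2* to *E2f1* at day 1 was 2.07, 1.85 and 1.71 in WT and 2.93, 3.08 and 3.07 in libraries labelled Mtgr1-/-. At day 3 it was 1.48, 1.31 and 1.61 against 2.13, 3.18 and 2.71, and the differences in the mean were 1.15 and 1.21 (exact permutation p = 0.1 for each). In crypts the ratio overlapped, with 2.47 to 3.19 in WT and 3.08 to 3.68 in the Mtgr1-/- libraries.

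The ratio of *Ccnd2* to *Ccnd1* in crypts was 0.44, 0.83 and 1.85 in WT and 2.12, 2.21 and 2.40 in libraries labelled Mtgr1-/-, a difference of 1.21 (exact permutation p = 0.1). The highest WT value was that of WT crypt 3, and without it the difference was 1.61. At day 1 the ratio was 1.22 to 1.25 in WT and 1.54 to 2.75 in the Mtgr1-/- libraries, a difference of 0.84 (exact permutation p = 0.1), and at day 3 the groups overlapped (0.35, exact permutation p = 0.2). Without null replicate 3 these differences were 0.50 and 0.17. *Ccnd3* to *Ccnd1* differed by 1.35 at day 1 and by 0.63 at day 3 without overlap (exact permutation p = 0.1 for each), and by 0.94 in crypts with overlap. *Ccne2* to *Ccne1* did not overlap at day 3, with -0.08 to -0.01 in WT and -0.95 to -0.68 in the Mtgr1-/- libraries (-0.73, exact permutation p = 0.1). *Cdk6* to *Cdk4* did not overlap in crypts, with -2.16 to -1.47 against -3.14 to -2.60 (-1.10, exact permutation p = 0.1). In enteroids the last ratio overlapped, with differences of 0.13 and -0.19. No ratio passed the adjusted test at any time point, and the change of a ratio between time points was not tested.

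**Figure D3:**
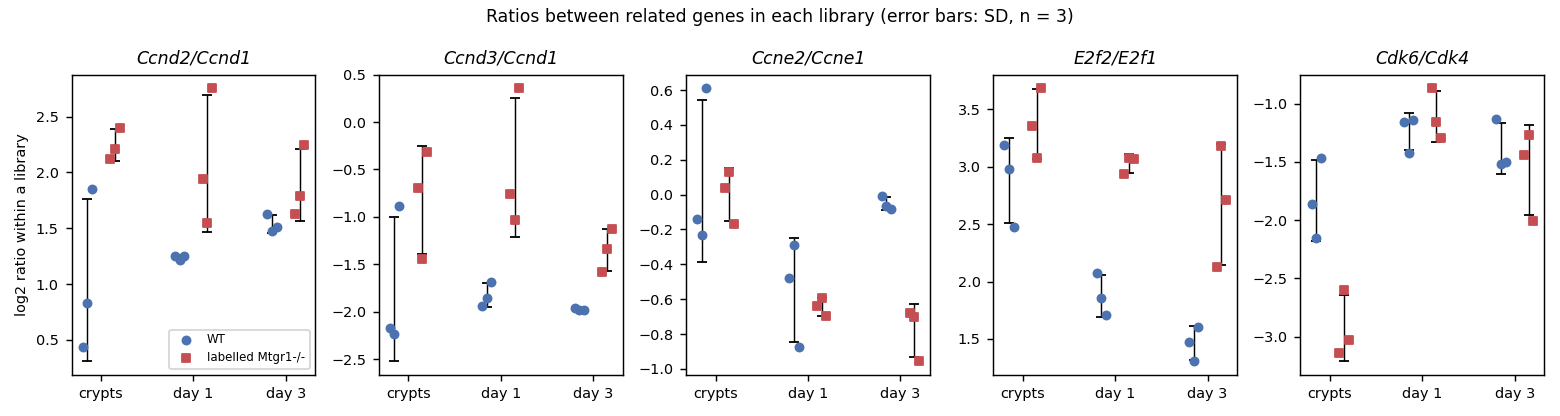
Log2 ratio of 2 related genes within each library (vertical axes, not starting at 0) by time point, for 5 pairs. Circles are WT libraries, squares are libraries labelled Mtgr1-/-, and error bars give the SD of 3. *E2f2* to *E2f1* is higher in all Mtgr1-/- enteroid libraries (2.13 to 3.18) than in all WT enteroid libraries (1.31 to 2.07).

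Levels across the 6 groups were compared as CPM, without a test. *Cdk4* had 127 ± 17.1 CPM in WT crypts, 208 ± 21.6 in WT day 1 enteroids and 307 ± 20.6 in WT day 3 enteroids (SD, n = 3). In libraries labelled Mtgr1-/- it had 141 ± 33.0, 70.5 ± 20.5 and 139.7 ± 41.2. The day 3 to crypt ratio of *Cdk4* was therefore 2.41 in WT and 0.99 in Mtgr1-/- libraries. WT day 3 was the highest of the 6 groups for 8 genes, the exceptions being *Ccne1* and *E2f2*, and Mtgr1-/- day 1 was the lowest for 8 genes, the exceptions being *Ccnd3* and *Cdk6*. The lowest group for those 2 genes was Mtgr1-/- crypts. With one joint scaling of all libraries, an alternative chosen after the data were seen, the lowest group became Mtgr1-/- crypts for *Ccnd1* and *Ccne1* also and WT day 3 for *E2f2*, and WT day 3 remained the highest group for the same 8 genes.

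The ratio of WT day 3 to WT crypts was 3.30 for *Cdk6*, 2.62 for *E2f1*, 2.30 for *Ccne1* and 2.28 for *Ccnd2*. It was 2.18 for *Ccne2*, 2.14 for *Cdk2*, 1.59 for *Ccnd1*, 1.39 for *Ccnd3* and 0.95 for *E2f2*. Under joint scaling the 10 ratios were smaller, from 0.77 for *E2f2* to 2.64 for *Cdk6*. In Mtgr1-/- libraries the same ratio was 2.42 for *Cdk6*, 2.12 for *Ccnd1*, 1.65 for *Ccnd2*, 1.49 for both *Ccnd3* and *Ccne1*, 1.14 for *E2f1*, 1.02 for *Cdk2*, 0.85 for *Ccne2* and 0.69 for *E2f2*. The group order of *Ccnd1* was WT day 3, WT day 1, WT crypts, Mtgr1-/- day 3, Mtgr1-/- crypts and Mtgr1-/- day 1, and among neighbours WT crypts overlapped Mtgr1-/- day 3 and Mtgr1-/- crypts overlapped Mtgr1-/- day 1. For *Ccnd3* and *E2f2* all 5 pairs of neighbouring groups overlapped, and for the other genes 2 to 4 did. The 3 tables were normalised separately, so these levels rest on the total of each library.

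Per kilobase of the longest coding transcript, *Ccnd2* was the most abundant D-type cyclin transcript in WT enteroids, with 60.1 ± 2.21 CPM per kilobase at day 1 and 87.3 ± 4.02 at day 3. *Ccnd1* had 43.1 ± 2.21 and 50.8 ± 0.68, and *Ccnd3* 21.6 ± 2.14 and 22.8 ± 0.16. The share of *Ccnd1* in this sum was 41.2% to 45.6% in the first 2 WT crypt libraries, 24.5% in WT crypt 3 and 18.03% to 22.8% in crypts labelled Mtgr1-/-. At day 1 it was 33.9% to 34.9% in WT and 13.8% to 27.9% in the Mtgr1-/- libraries, and at day 3 it was 30.5% to 32.3% and 21.7% to 29.3%. *Cdk4* made up 91.1% to 98.0% of the *Cdk4* and *Cdk6* sum in all 18 libraries. *E2f1* made up 11.7% to 23.6% of the *E2f1* and *E2f2* sum in crypts, 29.0% to 41.0% in WT enteroids and 15.9% to 28.2% in enteroids labelled Mtgr1-/-.

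The other genes of the G1 to S circuit were described by list, and each count is to be read against all genes, of which 28.9% were lower and 30.0% higher at day 1, and 29.1% and 29.9% at day 3. Among the pocket proteins, which hold E2F factors back, *Rbl1* was lower in Mtgr1-/- than in WT libraries at day 1 (-0.69 ± 0.08, adjusted p = 0.000385, limma) and at day 3 (-0.64 ± 0.09, 0.000777). *Rb1*, the retinoblastoma gene, was higher at day 1 (0.55 ± 0.11, adjusted p = 0.00336) and at day 3 (0.44 ± 0.14, 0.0245). *Rbl2* was higher at day 1 (0.35 ± 0.09, adjusted p = 0.00965), and its day 3 value was 0.18 (0.098).

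Of 8 other E2F and DP genes, 5 were lower at day 1 (28.9% of all genes) and 6 at day 3 (29.1%), and none was higher. The repressor genes *E2f7* (-1.39 at day 1 and -1.16 at day 3) and *E2f8* (-1.28 and -0.93) had the most negative differences, followed by *E2f6* (-0.98 and -0.73). Of 8 genes of CDK activation and cyclin turnover, 4 were lower at day 1 (28.9% of all genes) and 2 at day 3 (29.1%), so that the day 3 count was no higher than the share over all genes. The genes called included *Skp2*, whose product marks CDK inhibitors for degradation (-1.36 and -0.95), its cofactor *Cks1b* (-1.09 and -0.63) and, at day 1 alone, the cyclin gene *Ccnh* (-0.46).

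The CDK inhibitors were split. Of the 7 genes, 6 were tested at day 1 and 7 at day 3. *Cdkn2b*, which encodes the CDK4 and CDK6 inhibitor p15, was higher by 1.55 ± 0.20 at day 1 and by 1.68 ± 0.21 at day 3, and *Cdkn1c* by 1.61 ± 0.37 and 1.33 ± 0.27. *Cdkn1a* was higher as well (1.15 at each time point). *Cdkn2c*, of the same inhibitor family as *Cdkn2b*, was lower by 1.401 at day 1 and by 1.25 at day 3, and *Cdkn1b* was lower by 0.71 and by 0.93. The counts of *Cdkn2c* at day 1 were 356, 450 and 444 in WT and 173, 193 and 115 in libraries labelled Mtgr1-/-, so that this inhibitor was lower alongside *Cdk4* and *Cdk6*, whose products it binds. *Cdkn2a* was called higher at day 3 from 0, 0.891 and 3.87 counts in WT and 7.96, 21.9 and 26.9 in the Mtgr1-/- libraries (adjusted p = 0.00727, limma), close to the lower limit of detection.

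Of 20 E2F target genes of S phase, 18 were lower at day 1 and 20 at day 3, with medians of -1.28 and -1.03. The helicase gene *Mcm2* fell by 1.505 at day 1 and by 1.23 at day 3, the polymerase gene *Pola1* by 1.48 and by 1.36, *Mcm3* by 1.49 at day 1 while the checkpoint kinase gene *Chek1* fell by 1.297 at day 3. All 10 G2 and M phase genes were lower at both time points, with medians of -1.08 and -0.87, led by *Cdc25b* (-1.33), *Plk1* (-1.26) and *Aurkb* (-1.24) at day 1 and by *Plk1* (-1.04), *Aurkb* (-1.02) and *Cdk1* (-1.01) at day 3. The medians of the 10 G1 genes, -1.16 and -0.83, lay beside these. Of 10 cyclin and kinase genes that act in transcription, 1 was lower at each time point: *Cdk9* at day 1 (-0.23) and *Ccnl1* at day 3 (-0.42). In crypts limma called none of the 65 genes of these 7 lists that were tested, against 3.15% of all genes lower and 1.58% higher. At an unadjusted p below 0.05, 5 of the 65 were lower and 2 higher. There edgeR called none of 65 (5 lower and 1 higher unadjusted), beside 181 lower and 58 higher of all 13188 genes. DESeq2 called 1 lower and 1 higher of 66, beside 772 and 445 of all 14617 genes.

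**Figure D4:**
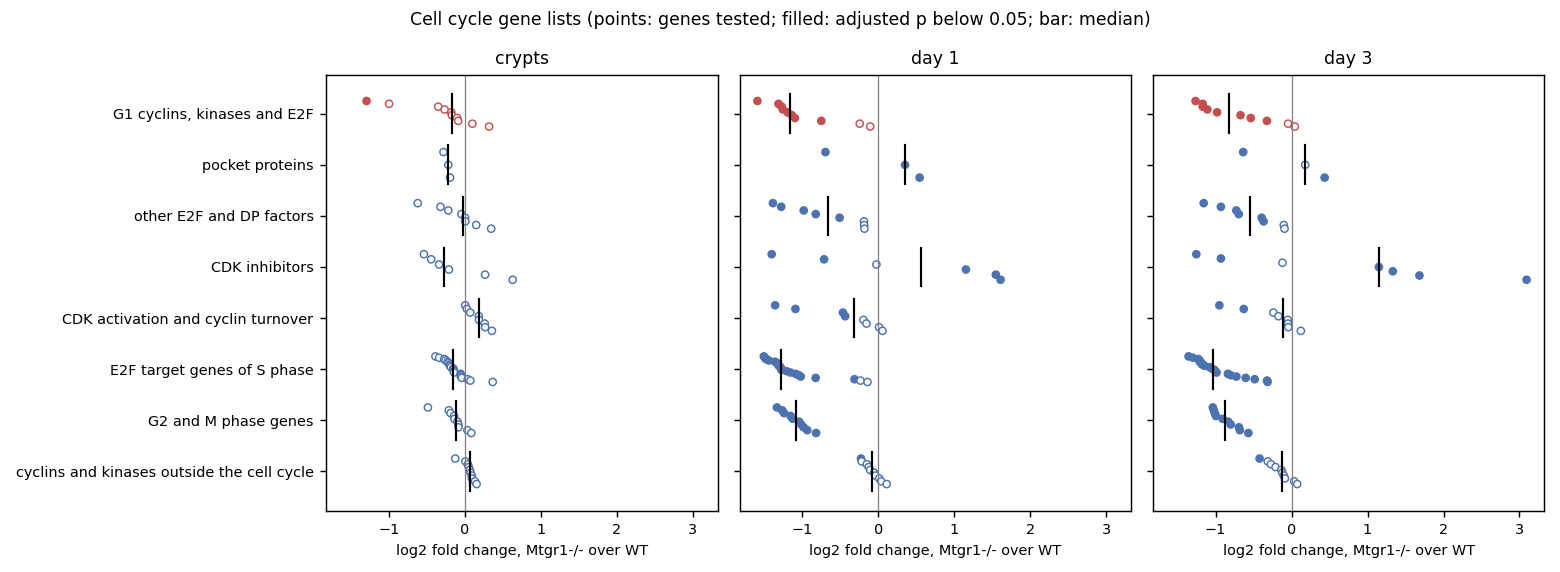
Log2 fold change (horizontal axes, labelled Mtgr1-/- over WT) of each tested gene of 8 gene lists, with a panel for crypts and for either enteroid age. Filled points have an adjusted p below 0.05, and the vertical bars are list medians. In enteroids the medians of the G1 genes, E2F targets and G2 and M phase genes lie between -0.83 and -1.28, while those of the transcription cyclins and kinases are -0.08 and -0.13.

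The genes whose levels followed *E2f1* most closely over the 18 libraries, among 12145 genes in all 3 tables, were *Pole2* (Pearson r = 0.992), *Cenph* (0.992) and *Exo1* (0.990). For *Ccne1* they were *Cdca8* (0.982), *Crnkl1* (0.981) and *Nup107* (0.979), and for *Ccnd2* *Fbxo31* (0.952), *Nelfb* (0.950) and *Rai1* (0.950). For *Ccnd1* they were *Myo5c* (0.963), *Rab3d* (0.945) and *Nupr1* (0.937). Among the 10 genes, *E2f2* had the lowest r with the rest, from -0.21 with *Ccnd3* to 0.48 with *Cdk4*, while *Cdk2* and *Ccne2* reached 0.98. These values describe log2 CPM values over 6 groups of 3 libraries, which share genotype, time point and mouse.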

How the data were processed

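mRNA was sequenced from 9 WT and 9 Mtgr1-/- duodenal libraries. The authors trimmed reads with fastp 0.20.0, quantified them with Salmon 1.3.0 against GENCODE mouse transcripts and deposited gene counts divided by DESeq2 1.26.0 size factors, a signal per gene normalised separately in each of the 3 tables. The 6 columns per table of the authors' own comparisons (base mean, log2 fold change, its error, a score and p-values) were deposited beside them and were not used. Groups came from the labels. The main test was limma 3.58.1 (R 4.3.3, trend) on log2(value + 1) for genes with a mean of at least 10, 3 against 3 libraries at each time point, with Benjamini-Hochberg adjustment over all genes and a threshold of 0.05. Fold changes are on this log2(value + 1) scale. Every fit was tested on simulated data. For 16 of 18 libraries whole reads were recovered from the value steps. In all 18, 100% of values were whole within 0.001, so this share did not set the other 2 apart. Fits with edgeR 4.0.16 and DESeq2 1.42.0 were run on the recovered reads, without WT crypt 2 and null day 3 replicate 2. Deviations of same-numbered libraries of both genotypes correlated positively at day 1 (0.116 to 0.231) and in crypts (0.0764 to 0.346), but not at day 3 (-0.0156 to -0.00226). Differently numbered pairs ran from -0.19 to -0.0152 at day 1 and from -0.302 to 0.201 in crypts. The labels name 3 mice per genotype, so the libraries of one time point are separate animals. The same mouse numbers recur at each time point, so the 18 libraries are not 18 animals.

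The 10 members and all gene lists were chosen with earlier results of these data known. Besides the members and *Cbfa2t2*, genes were named by rule: up to 3 genes of each list with the largest change past the threshold at day 1 and at day 3, the genes of a list with up to 3 calls against the direction of most, and the 3 genes with the highest correlation to *Ccnd1*, *Ccnd2*, *Ccne1* and *E2f1*. Markers stand outside that rule. Levels and lengths used GENCODE M21 transcripts, and Salmon's split of reads between transcripts could affect genes with related copies. Alternatives changed the pseudocount, filter, scaling, variance model, pairing, tool or libraries. Joint scaling of levels and leaving out libraries for ratios were chosen after seeing the data.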

Additional observations from a re-analysis of the deposited data

Results flagged for a closer look

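The difference between libraries labelled Mtgr1-/- and WT libraries passed the test for a change between crypts and day 1 enteroids for 6 of the 10 genes (21.1% of all genes became more negative) and between crypts and day 3 for 4 (15.1%), by limma with a term for that change (3 mice per genotype, adjusted over all genes). From crypts to day 1 it changed by -1.37 for *Cdk4*, -1.08 for *E2f1*, -1.05 for *Cdk2*, -1.01 for *Ccne2*, -0.99 for *Ccne1* and -0.66 for *Ccnd2* on the log2 scale. From crypts to day 3 it changed by -1.08 for *Cdk4*, -1.08 for *Ccne2*, -0.996 for *E2f1* and -0.84 for *Cdk2*. Only the *Cdk4* calls held whichever mouse was left out. Without WT mouse 2, 1 of the 6 day 1 calls was left, and without Mtgr1-/- mouse 2 the day 3 values were -0.72 for *Ccne2*, -0.47 for *E2f1* and -0.47 for *Cdk2*, none of them called. In each case the crypt values of the genotypes overlapped and the enteroid values did not. The cyclin and kinase genes *Ccnd1* and *Cdk6*, with the most negative differences in crypts, were not among them. Culture and time since isolation changed together between crypts and enteroids and cannot be told apart.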

How the results depend on the processing

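At day 1 and day 3 the count of 8 lower genes lay between 8 and 10 and between 6 and 8 under the alternatives run. Of 700 alternative values of single genes, 635 kept their direction and their side of the threshold, 39 lost it, 10 gained it and 16 changed sign. For changes between time points, these 700 cover only the genes whose own change is given in the Results. Signs changed among the genes left out as well. With CPM, *Ccnd3* from crypts to day 1 went from 0.11 to -0.24, and *Cdk6* from day 1 to day 3 from -0.03 to 0.09. The crypt count of 1 lower gene became 0 with CPM scaling, 0 with no variance trend and 0 with edgeR, became 2 with array weights and 2 with DESeq2, and ran from 0 to 2 when 1 library was left out. Sign changes touched differences that were not called: in crypts *Ccne1* was 0.072 with quantile normalisation, 0.054 with edgeR and 0.064 with DESeq2, *Ccnd2* was 0.10 with array weights, and at day 3 *E2f2* was -0.026 with quantile normalisation and -0.16 with CPM, a scaling that moved the median of all genes by -0.20. Leaving out 1 library gave crypt ranges of -0.28 to 0.066 for *Ccnd2*, -0.012 to 0.24 for *Cdk4*, -0.38 to 0.12 for *Ccne1*, -0.40 to 0.12 for *Ccne2* and -0.39 to 0.057 for *E2f1*, and -0.073 to 0.12 for *E2f2* at day 3. The causes were not tested.

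Leaving out 1 mouse gave 1 to 6 genes with a more negative difference at day 1 than in crypts, 1 to 4 at day 3 than in crypts, and 0 to 2 with a less negative difference at day 3 than at day 1, the 2 being found without null replicate 2. The share over all genes was not counted for these fits. The ratio of *Ccne2* to *Ccne1* ran from -0.23 to 0.19 in crypts and from -0.26 to 0.032 at day 1, and that of *Cdk6* to *Cdk4* over -0.34 to 0.029 at day 3 (0.014 to 0.23 at day 1), when 1 library was left out. With the replicate number as a block the calls at the 3 time points were unchanged, with *Ccnd1* in crypts at -1.29 (adjusted p = 0.0126, limma) and 8 lower genes at day 1 and 8 at day 3. Between time points the block of 6 mice left 6 and 3 genes, *E2f1* from crypts to day 3 being lost (adjusted p = 0.0507, limma). For the ratios this pairing leaves the mean difference as it is, so their sign could not change and was not checked by it.

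Counts over all genes moved mainly in crypts, where 409 were lower and 205 higher. They were 1118 and 982 with array weights, 181 and 58 with edgeR, and 772 and 445 with DESeq2. Without 1 library they were 121 and 54 at the fewest (without WT replicate 1), 376 lower at the most (without null replicate 2) and 229 higher at the most. At day 1 they were 5614 and 2200 with CPM, in place of 3637 and 3776. With 3 libraries a group the standard errors of the 10 genes ran from 0.08 to 0.32 (log2), and 2 libraries whose reads were not recovered are missing from the edgeR and DESeq2 fits.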
